A study of Mus musculus with 18 samples.

Results

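The 42 mitosis genes described here encode the kinases, kinetochore parts, spindle motors, chromosome proteins and ubiquitin ligase partners that carry a cell through division. They were chosen by symbol, for their known role in mitosis, from the 34896 genes of an RNA-seq table of the mouse neutrophil lineage, and all 42 were found. RNA was measured in 3 libraries each of granulocyte-monocyte progenitors (GMP, lin-cKIT+SCA1-CD16/32+CD34+), pre-neutrophils (preNeu) and mature neutrophils (matNeu). All of these cells were sorted from the bone marrow of wild type C57BL/6 mice aged 6 to 12 weeks. The preNeu and matNeu cells were gated as MAC-1+GR1+ cells and separated by cKIT, CXCR4, SIGLECF and CXCR2. H3K4me2 ChIP-seq had 1 library per stage, ATAC-seq gave 1 usable list of open sites, and CHD4 ChIP-seq had 1 library of wild type GMPs and 1 of GMPs from Gfi1-/- mice of the same strain and age. CHD4 is the helicase of the NuRD chromatin remodeling complex, and GFI1 is a transcriptional repressor needed for neutrophil development. The sources used here do not say whether the 3 libraries of a stage came from different mice, so p-values measure the spread between libraries, which may be technical.

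Entry into mitosis is driven by CDK1 bound to cyclin B, which is switched on by CDC25 phosphatases and reinforced by Polo and Aurora kinases. Chromosomes are condensed by condensin and topoisomerase II, held to the spindle by kinetochores under the watch of the spindle checkpoint, and released when the anaphase promoting complex (APC/C) with CDC20 marks cyclin B and securin for destruction. Genes of this program are known to peak in G2 and M phase. In resting cells they are repressed by the DREAM complex, which binds a short promoter element, the CHR (cell cycle genes homology region), often next to CCAAT boxes bound by NF-Y. In the neutrophil lineage, GMPs and pre-neutrophils are known to divide, and mature neutrophils are known to have left the cell cycle.

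Most mitosis genes rose from GMP to preNeu, and all fell from preNeu to matNeu. Levels are given in TPM, a length-corrected share of each library's transcripts, and changes as differences of log2(TPM + 1) with their SE. Where means stand in a row they are in the order GMP, preNeu and matNeu, each ± SD over 3 libraries. Calls are from limma over 13061 genes with Benjamini-Hochberg adjusted p below 0.05. All 42 members passed the filter of at least 1 TPM in at least 3 libraries. From GMP to preNeu, 34 of the 42 members were called higher, against 14.7% of all genes tested, and 0 were called lower, against 44.3%. Their median log2 change was 1.05, beside -0.52 over all genes tested, and all 42 changes were above 0. Across other settings of pseudocount, filter and scaling, 26 (pseudocount of 0.1) to 41 (median-of-ratios scaling) members were called higher. Of all genes, 1851 of 13061 and 3033 of 12986 were called higher in these 2 settings. From preNeu to matNeu all 42 members were called lower, against 39.8% of genes, with a median of -6.39 beside -0.32. Between GMP and matNeu, 40 members were called lower, against 54.1% of genes, 0 were called higher, against 22.8%, and Kif23 and Cdc25b were not called. The median there was -5.40 beside -0.92. In bulk samples, fewer cells that express a gene and less RNA per cell cannot be told apart.

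**Figure D1:**
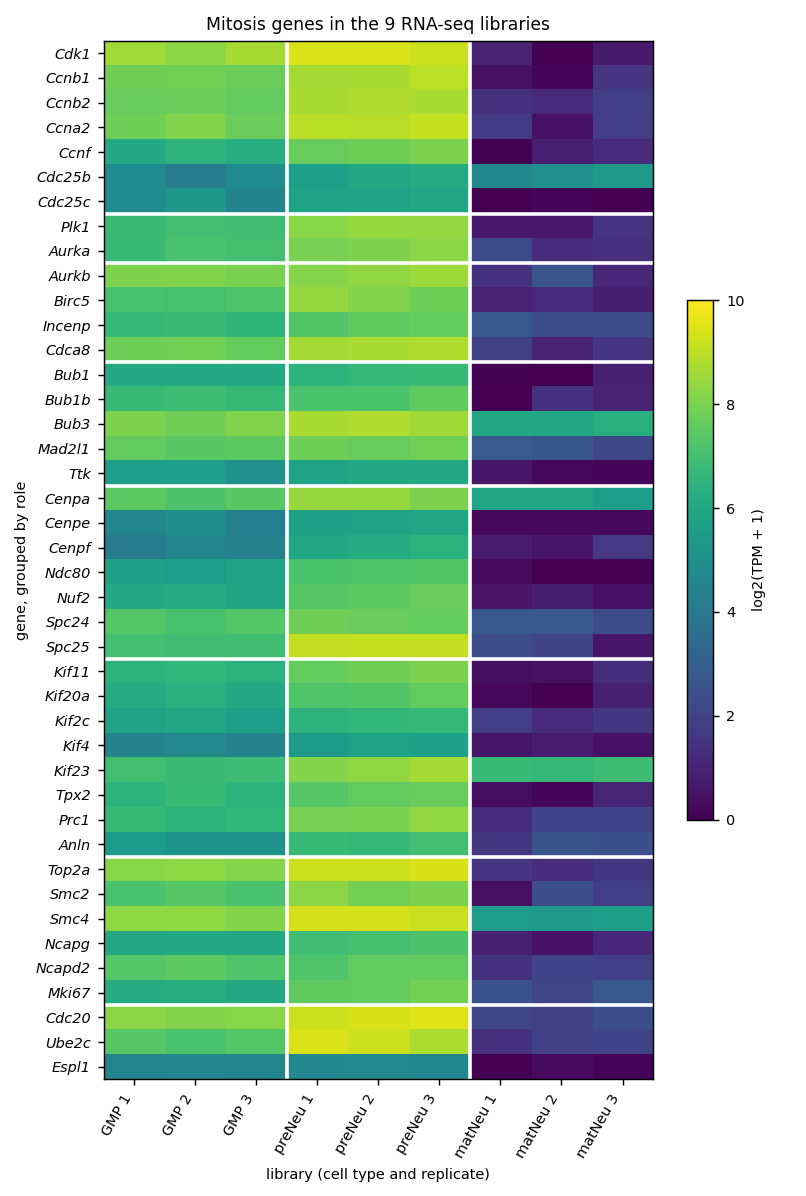
Level of the 42 mitosis genes (rows, grouped by role) in the 9 RNA-seq libraries (columns), as log2(TPM + 1) on a color scale. For most members the preNeu columns are the brightest and the matNeu columns the darkest, and Cdc25b, Kif23, Bub3, Cenpa and Smc4 stay the brightest within matNeu.

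Taken as a sum, the 42 members made up 0.54 to 0.557% of the TPM of the GMP libraries, 1.11 to 1.18% of the preNeu libraries and 0.036 to 0.0398% of the matNeu libraries. These ranges did not overlap. The median member had 2.07 times its GMP level in preNeu, whereas the median of 12357 genes with at least 1 TPM in GMP had 0.584 times. In matNeu, the median member kept 0.502% of its preNeu level, whereas the median of 11361 genes with at least 1 TPM in preNeu kept 62.7%. Below 5% of the preNeu level were 37 of the 42 members (88.1%), in comparison with 8.22% of those genes. Per library, 41 members had all 3 preNeu values above all 3 GMP values, Ncapd2 being the exception. All 3 matNeu values were below all 3 preNeu values for the 42 members and below all 3 GMP values for 40 of them.

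The promoters of the members shared short elements that the choice of members did not use. RefSeq promoter sequences (GRCm38.p6, 250 bases before to 50 bases after the start) were at hand for 34 of the 42 members. The CHR core, searched as TTTGAA or TTCGAA on both strands, was in 29 of the 34 (85.3%), in comparison with 19.2% of all 32851 promoters in the table. The NF-Y core CCAAT was in 28 (82.4%, against 37.4%), and both cores were in 26 (76.5%, against 7.53%). An E2F core, searched as GGCGGGAA, TTTGGCGC or TTTCCCGC, was in 2 members, Ncapg and Ncapd2 (5.88%, against 3.21%). A member counted once if any of its RefSeq starts held a match. The 32851 promoters were counted per start, with no filter on expression. TTCGAA is its own reverse complement, and GGCGGGAA and TTTCCCGC can match overlapping letters on opposite strands. In the 50 bases after the start alone, a window chosen after seeing the data, a CHR core was found in 16 of the 34 members (47.1%, against 2.46% of all promoters). The 150 bases before the start alone held a CHR core in 14 members (41.2%, against 9.70%), an NF-Y core in 27 (79.4%, against 24.5%) and both in 12 (35.3%, against 2.43%). A match in these windows describes the sequence and does not show that a factor binds there.

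The 120 bases before the start are printed here for 6 members with the steep fall and 4 that stayed measurable in matNeu, to show where the elements lie. Capitals mark the searched cores, where ATTGG and TTCAAA are CCAAT and TTTGAA read on the other strand. All positions are on GRCm38.p6 and lie immediately upstream of a RefSeq start, which can differ from the GENCODE 5′ end used for the peaks. The stretches of Cdk1, Ccnb1, Cdc20, Ube2c and Cenpa run past that end, and that of Bub3, before the first of its 2 RefSeq starts, lies within the GENCODE gene.
Cdk1 (chr10:69352913-69353032, minus strand): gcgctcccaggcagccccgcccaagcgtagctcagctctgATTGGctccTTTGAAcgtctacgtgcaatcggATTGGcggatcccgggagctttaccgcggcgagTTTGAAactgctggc
Ccnb1 (chr13:100786487-100786606, minus strand): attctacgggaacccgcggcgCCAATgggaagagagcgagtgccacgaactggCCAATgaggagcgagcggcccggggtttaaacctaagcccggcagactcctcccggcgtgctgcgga
Plk1 (chr7:122159315-122159434, plus strand): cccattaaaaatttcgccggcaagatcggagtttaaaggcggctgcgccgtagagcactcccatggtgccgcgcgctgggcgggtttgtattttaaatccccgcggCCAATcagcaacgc
Cdc20 (chr4:118437344-118437463, minus strand): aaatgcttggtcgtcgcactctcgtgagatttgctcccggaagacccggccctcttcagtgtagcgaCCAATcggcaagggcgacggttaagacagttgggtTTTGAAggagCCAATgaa
Ube2c (chr2:164769809-164769928, plus strand): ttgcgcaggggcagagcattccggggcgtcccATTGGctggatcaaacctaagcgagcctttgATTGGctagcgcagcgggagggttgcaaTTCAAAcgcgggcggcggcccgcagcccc
Top2a (chr11:99024190-99024309, minus strand): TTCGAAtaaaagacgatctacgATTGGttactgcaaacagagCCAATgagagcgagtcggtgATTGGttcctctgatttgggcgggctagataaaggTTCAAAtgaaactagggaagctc
Kif23 (chr9:61946800-61946919, minus strand): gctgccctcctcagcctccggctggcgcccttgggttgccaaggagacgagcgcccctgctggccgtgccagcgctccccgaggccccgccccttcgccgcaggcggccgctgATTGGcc
Cdc25b (chr2:131186828-131186947, plus strand): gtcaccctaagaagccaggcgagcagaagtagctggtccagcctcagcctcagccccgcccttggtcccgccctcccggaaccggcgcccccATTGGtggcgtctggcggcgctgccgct
Bub3 (chr7:131560250-131560369, plus strand): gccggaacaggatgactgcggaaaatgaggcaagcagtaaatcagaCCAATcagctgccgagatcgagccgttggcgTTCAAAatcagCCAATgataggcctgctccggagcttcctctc
Cenpa (chr5:30666766-30666885, plus strand): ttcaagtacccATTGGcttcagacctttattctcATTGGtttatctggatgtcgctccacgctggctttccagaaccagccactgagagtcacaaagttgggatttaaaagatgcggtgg
Cdk1 held a CHR core 15 bases and another 71 bases before the start, with CCAAT boxes at 48 and 80 bases. Top2a held 2 CHR cores and 3 CCAAT boxes within the printed window, and Ube2c and Cdc20 each had 1 CHR core and 2 CCAAT boxes. Ccnb1 had 2 CCAAT boxes and no match to the CHR letters. Of the 4 members that stayed measurable, Bub3 had a CHR core between a pair of CCAAT boxes. Kif23 and Cdc25b had 1 CCAAT box each, 7 and 28 bases before the start, and their CHR cores began 2 and 7 bases after the start, outside the printed stretch. The CHR cores of Cenpa and Plk1 began 16 and 30 bases after the start. Both elements were thus found in promoters of members that fell to near 0 and of members that did not.

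All 7 genes of the group of Cdk1, cyclins and CDC25 phosphatases were called higher in preNeu, and all except Cdc25b were close to 0 in matNeu. With a pseudocount of 0.1 the preNeu calls of Cdk1, Ccnb1, Ccna2, Ccnf and Cdc25c were lost. Cdk1, the kinase that drives entry into mitosis, had 391, 306 and 409.9 TPM in GMP, 692, 691 and 595 TPM in preNeu, and 0.978, 0 and 0.664 TPM in matNeu. Its preNeu values were all above its GMP values, its matNeu values were all below 1 TPM, and matNeu 2 was listed at 0. The log2 change was 0.84 (SE 0.23, adjusted p = 0.00959) in preNeu against GMP and -7.95 (SE 0.23, adjusted p = 5.45e-10) in matNeu against GMP. Ccnb1, the cyclin B that activates CDK1, had 229.5, 233 and 216 TPM in GMP, 396, 417 and 511 TPM in preNeu, and 0.370, 0.125 and 1.86 TPM in matNeu. The groups did not overlap, and the rise in preNeu was 0.96 (SE 0.29, adjusted p = 0.0154), a call that was lost without preNeu 3 (0.85, adjusted p = 0.0583). Ccnf, an F-box protein that limits centrosome duplication, had 68.3, 90.1 and 73.5 TPM in GMP, 204, 220.1 and 260.2 TPM in preNeu, and 0.0490, 0.827 and 1.29 TPM in matNeu. It had the largest preNeu difference of the group, 1.55 (SE 0.27, adjusted p = 0.000551). The group's other cyclins followed the same order. Ccnb2, the other mitotic cyclin B, had means of 205 ± 11.6, 431 ± 17.8 and 1.89 ± 0.672 TPM. Ccna2, the cyclin of S phase and early mitosis, had means of 235 ± 33.5, 519 ± 37.1 and 1.72 ± 1.16 TPM. Cdc25c, a phosphatase that activates CDK1, had means of 29.5 ± 8.29, 57.6 ± 5.19 and 0.0466 ± 0.0806 TPM and was listed at 0 in 2 of the 3 matNeu libraries.

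Cdc25b, the phosphatase that starts CDK1 activation at the centrosome, had 27.97, 15.8 and 27.8 TPM in GMP, 49.2, 62.2 and 70.9 TPM in preNeu, and 24.1, 32.2 and 39.9 TPM in matNeu. Its preNeu libraries were above its GMP libraries, and its matNeu libraries overlapped the GMP range. The change was 1.34 (SE 0.26, adjusted p = 0.00119) in preNeu against GMP, -0.91 (SE 0.26, adjusted p = 0.0101) in matNeu against preNeu and 0.43 (SE 0.26, adjusted p = 0.156) in matNeu against GMP. Under median-of-ratios scaling and quantile normalization the matNeu level was called higher than the GMP level and no longer called lower than the preNeu level. Exons of Cdc25b share bases with Spef1 on the opposite strand, and whether strand was used for the TPM values is not given in the sources used here.

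Plk1 and Aurka followed the same course. Plk1, which promotes centrosome maturation and mitotic exit, had 112, 127 and 122 TPM in GMP, 295, 341 and 335 TPM in preNeu, and 0.598, 0.605 and 1.90 TPM in matNeu. The 3 stages did not overlap, with changes of 1.41 (SE 0.22, adjusted p = 0.000304) in preNeu against GMP and -5.96 (SE 0.22, adjusted p = 2.08e-09) in matNeu against GMP. Aurka, the kinase of spindle poles, had 108, 138 and 132 TPM in GMP, 246, 268 and 309 TPM in preNeu, and 3.78, 1.32 and 1.60 TPM in matNeu. It was highest in preNeu and lowest in matNeu in every library, with a rise of 1.12 (SE 0.25, adjusted p = 0.00295). The kinase Aurkb works at the centromere inside the chromosomal passenger complex and had 264, 271 and 255 TPM in GMP, 289.9, 326 and 366 TPM in preNeu, and 1.75, 5.27 and 1.18 TPM in matNeu. Its preNeu values lay above its GMP values without overlap, but the difference of 0.31 (SE 0.31, adjusted p = 0.431) did not pass the test. The SE of each comparison was taken from all 9 libraries, matNeu among them. With GMP and preNeu fitted alone, Aurkb was called higher. The other passenger genes were called higher in preNeu. Cdca8, which targets the complex to the centromere, had 223, 236 and 200.4 TPM in GMP, 403, 428 and 447 TPM in preNeu, and 2.97, 0.957 and 1.97 TPM in matNeu. Incenp, its scaffold, had 101, 111 and 93.3 TPM in GMP, 157, 186 and 196 TPM in preNeu, and 5.69, 4.21 and 3.85 TPM in matNeu. The rise was 0.95 (SE 0.22, adjusted p = 0.0036) for Cdca8 and 0.81 (SE 0.17, adjusted p = 0.00175) for Incenp, and in both genes the groups were separate. Birc5, the survivin subunit, had means of 142 ± 8.52, 279 ± 58.7 and 1.04 ± 0.300 TPM.

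The spindle checkpoint, which delays anaphase until all chromosomes are attached, had the smallest median difference of the 8 role groups in preNeu (0.51). Of its 5 members Bub3 was called higher in preNeu, and all 5 were with median-of-ratios scaling. The other 4 had changes of 0.27 (Mad2l1, adjusted p = 0.225) to 0.55 (Bub1, adjusted p = 0.0725). These 4 were higher in every preNeu library than in every GMP library. Of 20 other settings, Bub1 was called in 6, Ttk in 5, Bub1b in 4 and Mad2l1 in 3. Among these were the fits without matNeu 1 for Bub1b (adjusted p = 0.0324) and without matNeu 3 for Bub1 (adjusted p = 0.0122). Bub3 recruits checkpoint kinases to kinetochores and had 267, 229 and 273 TPM in GMP, 428, 449 and 381 TPM in preNeu, and 65.2, 63.3 and 76.8 TPM in matNeu. The 3 stages were separate, and matNeu kept 16.3% of the preNeu level, with 0.71 (SE 0.13, adjusted p = 0.00066) in preNeu against GMP and -1.89 (SE 0.13, adjusted p = 1.45e-07) in matNeu against GMP. Bub1b, the checkpoint protein BUBR1, had 104, 119.5 and 103 TPM in GMP, 143, 141 and 187 TPM in preNeu, and 0, 1.75 and 0.988 TPM in matNeu. Its stages did not overlap. Its preNeu value of 0.51 (SE 0.31, adjusted p = 0.183) missed the threshold, whereas its fall in matNeu against GMP was -5.96 (SE 0.31, adjusted p = 2.3e-08). Ttk, the kinase MPS1, had means of 42.2 ± 8.81, 59.7 ± 6.17 and 0.268 ± 0.226 TPM. Bub1, a checkpoint kinase, had means of 66.5 ± 2.20, 98.1 ± 10.7 and 0.293 ± 0.471 TPM. Mad2l1, the MAD2 protein that holds back CDC20, had means of 183 ± 10.8, 221 ± 14.0 and 5.05 ± 1.49 TPM.

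Kinetochore genes had the largest median difference in preNeu (1.49), and all 7 were called higher. Spc25, a subunit of the NDC80 complex that grips microtubules, had 126, 121 and 122 TPM in GMP, 537, 554 and 538 TPM in preNeu, and 4.12, 3.12 and 0.510 TPM in matNeu. The preNeu mean was 4.40 times the GMP mean, with no overlap, the largest rise of any member, at 2.13 (SE 0.36, adjusted p = 0.000455). Ndc80, the complex's namesake, had 52.5, 45.4 and 53.9 TPM in GMP, 143, 152 and 153 TPM in preNeu, and 0.215, 0 and 0 TPM in matNeu. It separated the stages completely, was listed at 0 in matNeu 2 and matNeu 3, and rose by 1.55 (SE 0.17, adjusted p = 2.93e-05) in preNeu. Their partner Nuf2 had means of 66.1 ± 8.29, 187 ± 21.4 and 0.542 ± 0.214 TPM. Spc24, the last of the 4 subunits, had means of 154 ± 16.4, 209 ± 14.4 and 5.27 ± 1.18 TPM and a rise of 0.45 (SE 0.17, adjusted p = 0.0413), a call that was lost in 10 of 20 other settings, among them each that left out 1 GMP or preNeu library (0.36 to 0.50). Cenpf, a protein of the outer kinetochore, had 15.8, 22.9 and 20.8 TPM in GMP, 61.7, 70.4 and 82.3 TPM in preNeu, and 0.749, 0.465 and 2.20 TPM in matNeu. It had the lowest mean level in GMP of all members and rose by 1.80 (SE 0.30, adjusted p = 0.000419) in preNeu, with no overlap of the groups. Cenpe, a kinetochore motor, had means of 24.3 ± 5.77, 54.6 ± 3.28 and 0.148 ± 0.00490 TPM.

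Cenpa, the histone H3 variant that marks the centromere in every cell cycle phase, had 178, 147 and 175 TPM in GMP, 348, 344 and 258 TPM in preNeu, and 57.6, 58.8 and 46.5 TPM in matNeu. Its stages were separate, but matNeu kept 17.1% of the preNeu level, well above the 0.476% of the median kinetochore member. The change in matNeu against GMP was -1.60 (SE 0.16, adjusted p = 3.06e-06).

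**Figure D2:**
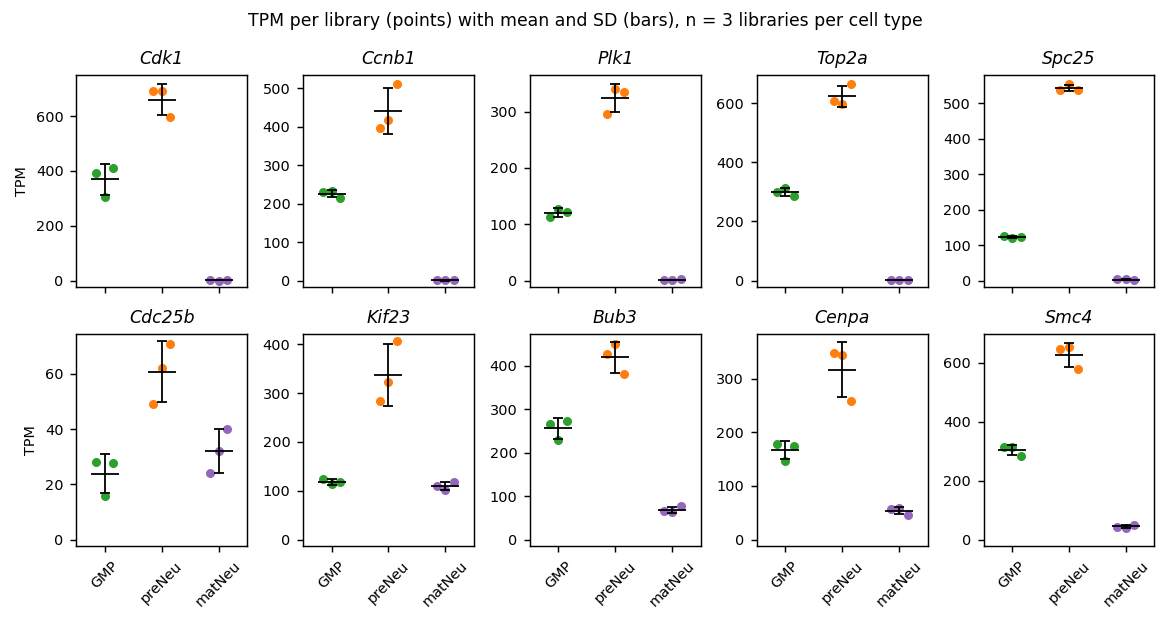
TPM per library (points) with the mean and SD (bars, n = 3) in GMP, preNeu and matNeu for 5 members that fell to near 0 (Cdk1, Ccnb1, Plk1, Top2a, Spc25) and the 5 that kept at least 5% of their preNeu level (Cdc25b, Kif23, Bub3, Cenpa, Smc4). The matNeu points of Kif23 lie between 101 and 118 TPM, beside 113 to 124 TPM in GMP.

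Spindle and cytokinesis genes were all called higher in preNeu (8 of 8). Kif23, the MKLP1 motor that bundles microtubules between separating cells, had 124, 113 and 118 TPM in GMP, 283, 322 and 406 TPM in preNeu, and 109, 101 and 118 TPM in matNeu. It rose by 1.49 (SE 0.14, adjusted p = 1.03e-05) in preNeu and fell by 1.60 (SE 0.14, adjusted p = 2.71e-06) in matNeu, where its values overlapped the GMP values. The difference of matNeu from GMP was -0.11 (SE 0.14, adjusted p = 0.487), and its sign depended on the scaling: it was 0.77 (adjusted p = 0.000133) with median-of-ratios scaling and 0.31 (adjusted p = 0.0533) with quantile normalization. The table lists Kif23 as a processed transcript, a class with no coding sequence, in place of a protein coding gene, and its isoforms could not be separated. Anln, the actin-binding protein of the cleavage furrow, had 42.2, 34.7 and 34.0 TPM in GMP, 105, 99.9 and 129 TPM in preNeu, and 2.06, 5.08 and 4.49 TPM in matNeu. Every preNeu value was above every GMP value, and the rise was 1.56 (SE 0.26, adjusted p = 0.00039). Tpx2, the activator of Aurora A on the spindle, had 87.3, 106 and 86.5 TPM in GMP, 165, 195 and 205 TPM in preNeu, and 0.289, 0.123 and 1.04 TPM in matNeu. Its stages were separate, with a rise of 1.00 (SE 0.23, adjusted p = 0.00314) and the largest fall of its group between GMP and matNeu, at -6.03 (SE 0.23, adjusted p = 2.25e-09). Kif11, the motor that pushes spindle poles apart, had means of 88.5 ± 5.89, 227 ± 31.4 and 0.699 ± 0.652 TPM. Kif20a, a motor of cytokinesis, had means of 71.8 ± 8.58, 165 ± 21.9 and 0.342 ± 0.449 TPM. The other motors were lower: Kif2c, which disassembles microtubules, had means of 54.6 ± 6.75, 95.5 ± 7.54 and 2.01 ± 0.651 TPM. Kif4, a chromosome-bound motor, had means of 22.5 ± 2.04, 49.9 ± 5.92 and 0.549 ± 0.178 TPM. Prc1, which crosslinks the central spindle, had means of 96.9 ± 9.45, 272 ± 43.9 and 2.52 ± 0.954 TPM.

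Of 6 proteins of mitotic chromosome structure, 4 were called higher in preNeu. Top2a, the topoisomerase that untangles sister chromatids, had 299, 314 and 287 TPM in GMP, 608, 598 and 664 TPM in preNeu, and 1.97, 1.42 and 2.09 TPM in matNeu. The stages were separate, with 1.05 (SE 0.13, adjusted p = 6.61e-05) in preNeu against GMP and -6.74 (SE 0.13, adjusted p = 8.34e-11) in matNeu against GMP. Mki67, the Ki-67 protein that coats mitotic chromosomes and is widely used to mark dividing cells, had 72.4, 73.2 and 64.3 TPM in GMP, 186, 194 and 238 TPM in preNeu, and 4.73, 3.30 and 5.56 TPM in matNeu. Its preNeu libraries were clear of the GMP libraries, with a rise of 1.54 (SE 0.18, adjusted p = 4.69e-05), and the change in matNeu against GMP was -3.70 (SE 0.18, adjusted p = 1.54e-08). Smc4, a condensin core subunit, had 313, 314 and 284 TPM in GMP, 645, 652 and 578 TPM in preNeu, and 44.6, 40.8 and 49.7 TPM in matNeu. It fell in matNeu without overlap but kept 7.20% of its preNeu level, and the change against GMP was -2.73 (SE 0.11, adjusted p = 4.66e-09). Its partner Smc2 had means of 149 ± 15.98, 268 ± 31.7 and 2.41 ± 2.00 TPM. The preNeu difference of Smc2 was 0.84 (SE 0.40, adjusted p = 0.0905). It passed the test in 7 of 20 other settings, among them those without matNeu 1 (adjusted p = 0.00214) or matNeu 2 (adjusted p = 0.0352). Ncapg, a condensin I subunit, had means of 65.5 ± 2.22, 132 ± 13.6 and 0.800 ± 0.369 TPM. Ncapd2, another, had means of 166 ± 16.9, 179 ± 23.03 and 2.46 ± 0.635 TPM and was the only member whose preNeu and GMP libraries overlapped. Its difference in preNeu was 0.10, with a 95% interval of -0.30 to 0.49 (adjusted p = 0.666), and it passed with median-of-ratios scaling.

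The APC/C partners rose steeply, and separase passed the test in 2 of 20 other settings, median-of-ratios scaling and quantile normalization. Cdc20, the activator of the APC/C, had 302, 283 and 296 TPM in GMP, 589, 665 and 734 TPM in preNeu, and 3.39, 2.87 and 4.25 TPM in matNeu. It reached the highest preNeu mean of all members, with 1.17 (SE 0.14, adjusted p = 5.71e-05). Ube2c, the ubiquitin-conjugating enzyme of the APC/C, had 168, 138 and 166 TPM in GMP, 717, 605 and 434 TPM in preNeu, and 1.65, 2.90 and 2.99 TPM in matNeu. It was separate between stages but spread widely in preNeu, with 1.86 (SE 0.22, adjusted p = 3.93e-05). Espl1, the separase that opens cohesin rings, had 22.5, 23.5 and 22.8 TPM in GMP, 24.1, 25.3 and 24.4 TPM in preNeu, and 0, 0.221 and 0.0576 TPM in matNeu. Its preNeu values were above its GMP values by a narrow margin, at 0.10 (SE 0.20, adjusted p = 0.706) with a 95% interval of -0.36 to 0.55, and it was listed at 0 in matNeu 1.

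**Figure D3:**
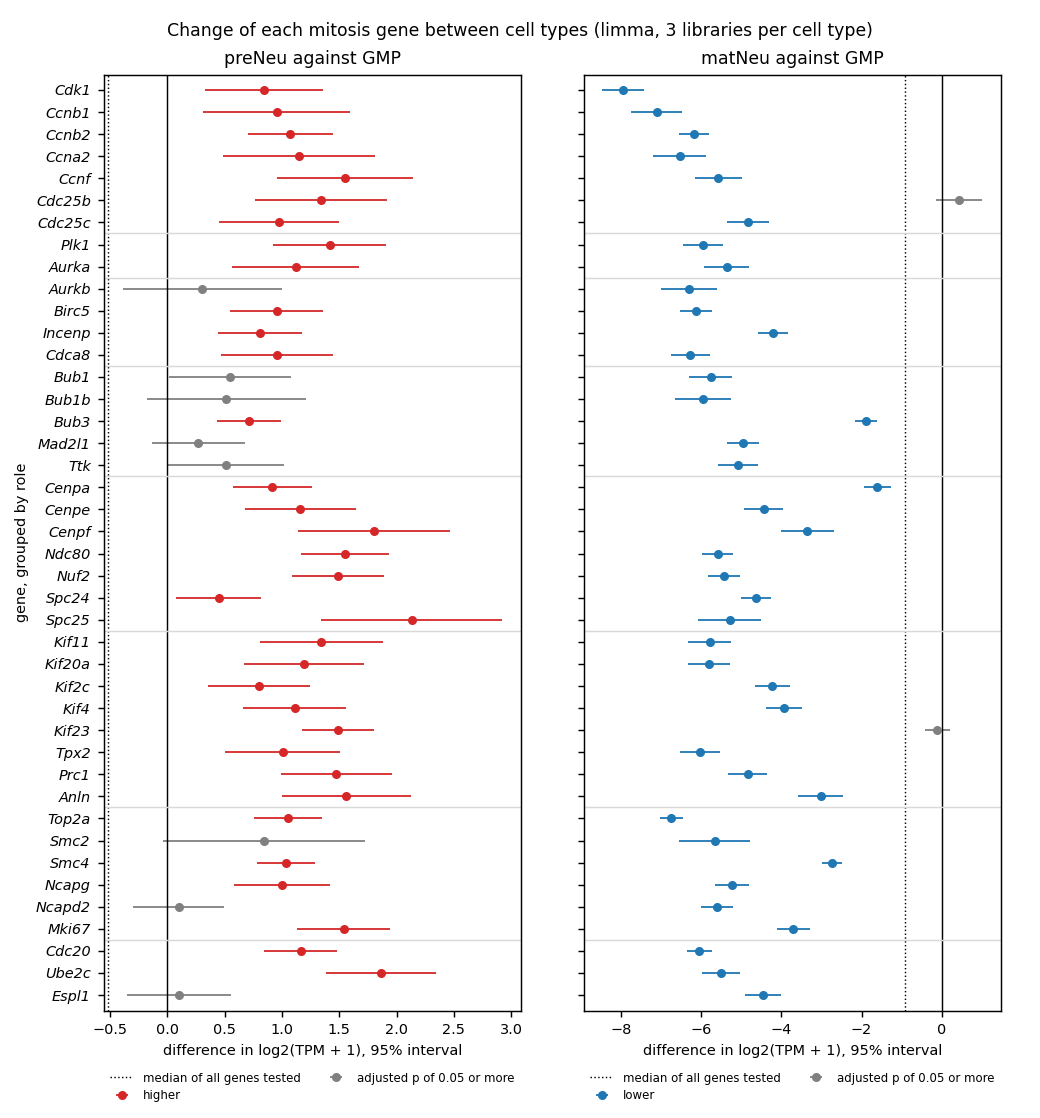
Difference of log2(TPM + 1) with its 95% interval for each of the 42 members, for preNeu against GMP and for matNeu against GMP (n = 3 libraries per stage). All preNeu differences are above 0, and all matNeu differences except those of Kif23 and Cdc25b lie below -1.

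Residual expression in matNeu came mostly from 5 members. Cdc25b kept 52.8% of its preNeu level, Kif23 32.5%, Cenpa 17.1%, Bub3 16.3% and Smc4 7.20%. Together they held 82.8% of the summed member TPM of matNeu, with 297 to 331 TPM per library beside 61.8 to 67.4 TPM for the other 37 members. Of the members, 16 had a matNeu mean below 1 TPM and 10 were below 1 TPM in all 3 libraries. Another 21 had means between 1 and 10 TPM, and the read depth behind such values is unknown. Markers of the earlier stages were also measured in matNeu: 6 GMP genes (Cd34, Kit, Mpo, Elane, Prtn3 and Ctsg) summed to 9.32 to 32.7 TPM there and to 45267 to 47153 TPM in GMP. The 6 preNeu genes (Ngp, Ltf, Camp, Cebpe, Chil3 and Lcn2) summed to 4564 to 6847 TPM in matNeu and to 145613 to 171432 TPM in preNeu. Their part in the residual levels was not tested.

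Most other genes of the division pathway were also lower in matNeu than in GMP. Counts in these lists are to be read beside the 14.7% of all genes called higher and 44.3% lower in preNeu, and the 22.8% higher and 54.1% lower in matNeu than in GMP. Of 23 DREAM, E2F and FOXM1 regulators, 8 were called higher and 3 lower in preNeu than in GMP, and 20 were called lower and 2 higher in matNeu than in GMP, with a median of -1.81. Foxm1, the activator of G2 and M genes, fell by 4.56 (SE 0.22, adjusted p = 1.26e-08) between GMP and matNeu, and Rbl1, the p107 subunit of DREAM, by 4.20 (SE 0.24, adjusted p = 4.57e-08). E2f2 and Lin54 moved the other way: E2f2, an activating E2F, had means of 4.79 ± 1.19, 67.3 ± 9.19 and 79.2 ± 6.71 TPM and rose by 3.81 (SE 0.19, adjusted p = 1.4e-08), and Lin54, the MuvB subunit that reads the CHR, had means of 12.2 ± 5.55, 29.2 ± 2.00 and 23.2 ± 4.92 TPM and rose by 0.96 (SE 0.30, adjusted p = 0.0136). Of 17 APC/C subunits and regulators, 3 were higher and 8 lower in preNeu, and 15 were lower in matNeu than in GMP, led by the inhibitor Fbxo5 (-5.81, SE 0.20, adjusted p = 1.27e-09) and the subunit Cdc16 (-4.14, SE 0.24, adjusted p = 4.98e-08). Of 28 further kinetochore and checkpoint genes, 7 were higher and 3 lower in preNeu, and 27 were lower in matNeu than in GMP. Zwilch, a subunit of the RZZ complex, fell by 5.44 (SE 0.22, adjusted p = 3.15e-09). Hjurp, the chaperone that loads CENP-A, was the one not called, with means of 198 ± 22.1, 329.5 ± 41.9 and 172 ± 4.03 TPM.

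Of 13 genes of cohesin and its guards, 3 were called higher and 2 lower in preNeu (14.7% and 44.3% of all genes), and 9 were lower and 1 higher in matNeu than in GMP (54.1% and 22.8%). Cdca5, the sororin that protects cohesin, fell by 6.41 (SE 0.27, adjusted p = 4.85e-09), and Sgo1, the shugoshin, by 4.51 (SE 0.24, adjusted p = 2.96e-08). Pttg1, the securin that holds separase inactive, had means of 16.5 ± 4.42, 5.90 ± 0.969 and 59.2 ± 9.48 TPM and rose by 1.80 (SE 0.23, adjusted p = 2.91e-05) between GMP and matNeu. All 4 further condensin subunits were lower in matNeu, among them Ncaph (-5.88, SE 0.18, adjusted p = 6.23e-10) and Ncapg2 (-4.41, SE 0.15, adjusted p = 1.29e-09), and 3 of the 4 were higher in preNeu. Of 12 other entry and exit enzymes, 5 were higher and 0 lower in preNeu. In matNeu 11 were lower than in GMP, led by the mitotic kinase Pbk (-7.08, SE 0.19, adjusted p = 3.65e-10) and Pkmyt1 (-6.63, SE 0.22, adjusted p = 1.06e-09), an inhibitory kinase of CDK1. Ensa, which restrains the phosphatase PP2A in mitosis, rose by 0.81 (SE 0.15, adjusted p = 0.000439), with means of 69.1 ± 8.63, 64.6 ± 7.28 and 121 ± 12.2 TPM.

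**Figure D4:**
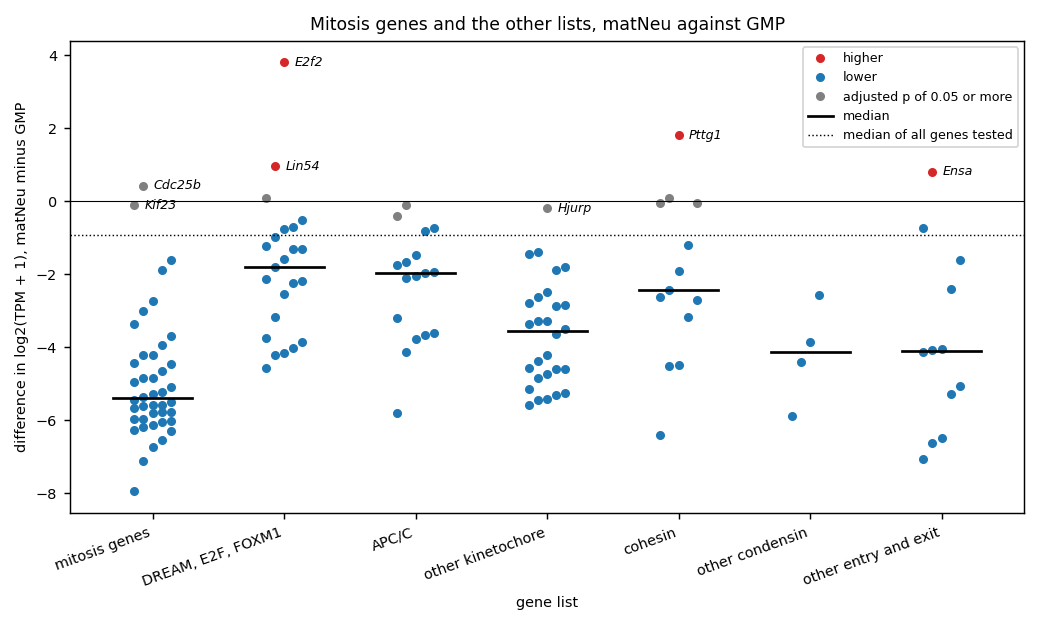
Difference of log2(TPM + 1) between matNeu and GMP for the 42 members and for 6 lists of other genes of the pathway, with a point per gene. The member list has the lowest median (-5.40), and E2f2, Lin54, Pttg1 and Ensa are the genes of the other lists called higher in matNeu.

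Promoter chromatin was compared with 11347 protein-coding genes that had at least 1 TPM in GMP. A promoter was counted as the 2 kb before and the 500 bp after a gene's 5′ end, and each list came from 1 library, so that these counts have no replicate check and no test. In wild type GMPs, 1 of the 42 member promoters held a CHD4 peak, in comparison with 12.6% of genes. This was Bub1, with a peak at chr2:127832450-127832761 (GRCm38), upstream of the start and with a fold enrichment of 5.27, whereas the median promoter peak had 7.45. In Gfi1-/- GMPs, 0 of 42 held a CHD4 peak, in comparison with 2.24% of genes. The Gfi1-/- list was shorter, with 7316 peaks in comparison with 35790, and the depth of both libraries is unknown. The paper reports far fewer CHD4 peaks in wild type GMPs than this list holds, so that these shares do not describe the paper's own set of sites.

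Farther from the start, CHD4 peaks were found in or within 10 kb of 12 members in wild type GMPs (28.6%, against 42.8% of genes) and of 2 in Gfi1-/- GMPs (4.76%, against 13.9%). The 12 were Ccnf, Aurkb, Bub1, Bub1b, Ndc80, Kif11, Kif2c, Kif23, Anln, Smc4, Ncapg and Mki67. Peaks inside the gene were found for Kif23, Anln, Smc4 and Mki67, and the rest lay outside the gene. Upstream of Kif2c, at chr4:117189241-117190995, lay the peak with the highest enrichment, 46.9-fold in wild type and 22.04 in Gfi1-/- cells. The next was near Ncapg at chr5:45709642-45710402, with 27.9 and 12.2. Both peaks were in the lists of both genotypes. Peaks at this distance were not assigned to one gene.

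H3K4me2, a mark of active and poised promoters, was on 41 of the 42 member promoters in each stage, in comparison with 88.8% of genes in GMP, 91.0% in preNeu and 89.8% in matNeu. The same 41 members were marked in all 3 stages (97.6%, against 87% of genes). Cdca8 was the exception, and all 42 were marked when any annotated start of a gene was allowed. Fold enrichments are comparable only within a list. There the median member peak was close to the median of all genes, at 3.48 beside 3.58 in GMP, 10.8 beside 10.5 in preNeu and 8.73 beside 8.55 in matNeu. Member peaks had a median width of 2285 bp in GMP, 4400 bp in preNeu and 2894 bp in matNeu, beside 2221, 3325 and 2578 bp over all genes.

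The mark was present in matNeu also where the RNA was near 0. Of the 37 members below 5% of their preNeu level, 36 had an H3K4me2 promoter peak in matNeu, with fold enrichments from 5.02 (Kif4) to 11.3 (Aurkb). The 5 members with more RNA had values from 6.49 (Cenpa) to 11.9 (Bub3). Cdk1 had the weakest member peak in GMP, with a fold enrichment of 2.63 and a width of 172 bp. In preNeu its peak was 4878 bp wide with 9.63, and in matNeu 3184 bp wide with 10.4. Plk1 had 3.47, 10.2 and 8.73 in the 3 stages, and Kif23 had 3.65, 11.3 and 8.62. The median promoter peak of all genes had 3.58, 10.5 and 8.55, so that steps between these lists are not particular to the members. A −log10 q-value of at least 5 left 10 members in the GMP list (23.8%, against 37.4% of genes). It left 41 in the preNeu and matNeu lists (97.6%, against 88.6% and 86.7% of genes).

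ATAC-seq, a measure of open chromatin, had a peak at 33 member promoters (78.6%), in comparison with 64.0% of genes. Among peaks whose −log10 q-value reached 5, the shares were close, at 17 members (40.5%) and 39.3% of genes. The lists given for preNeu and matNeu were identical, so that the stage of these sites is not known. Without a peak were Ccnb2, Plk1, Aurkb, Cdca8, Bub1, Bub1b, Kif2c, Kif4 and Espl1. The highest fold enrichment was 8.01, at Aurka, and the lowest 3.01, at Cdk1. All 5 members that kept more RNA in matNeu had a peak, and so did 28 of the other 37.

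**Figure D5:**
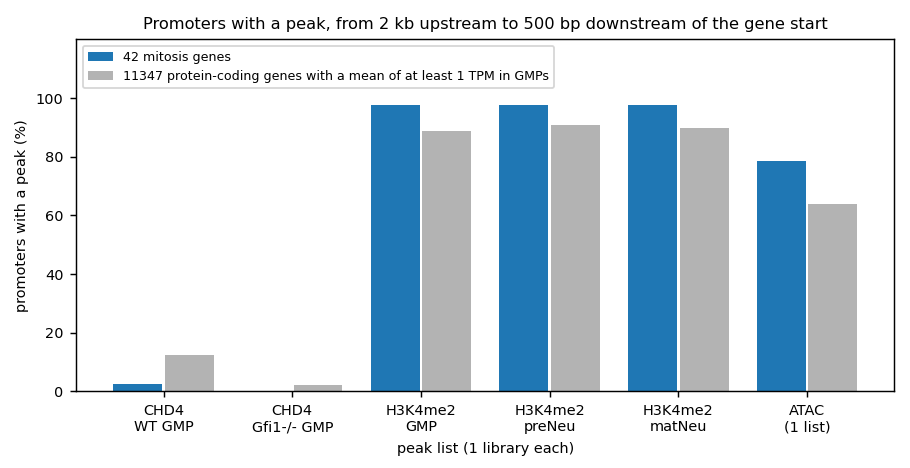
Percent of promoters with a peak in each list (1 library each), for the 42 mitosis genes and for 11347 protein-coding genes with at least 1 TPM in GMP. The member bar for CHD4 in wild type GMPs is at 2.38%, below the 12.6% of all genes, and the H3K4me2 bars are at 97.6% in each stage.

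Some properties of the libraries touch these results. The libraries had 10754 to 12256 genes at 1 TPM or more, and the 10 most abundant genes took 9.15 to 9.78% of TPM in GMP, 24.1 to 28.3% in preNeu and 12.7 to 15.9% in matNeu. TPM is a share, so that the values of all other genes depend on these. Of all calls in preNeu against GMP, 25% were higher, and 45.7% with median-of-ratios scaling or 48.1% with quantile normalization. The corresponding shares were 36.5, 47.6 and 50.3% in matNeu against preNeu and 29.6, 46.0 and 50.2% in matNeu against GMP. The sign of all 42 members in preNeu against GMP and in matNeu against preNeu was the same under both of these scalings. Of genes that every cell uses, Eef1a1 differed by -4.11 and Actb by 2.33 between GMP and matNeu. As for the labels, the GMP and preNeu genes above were highest in their own stage, and the 6 matNeu markers, among them Cxcr2 and Mmp9, summed to 721 to 845 TPM in GMP, 1116 to 1319 TPM in preNeu and 24187 to 27246 TPM in matNeu.

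The summed markers of each other cell type were below the summed markers of the stage itself in all 3 stages. Single genes could be higher: in GMP the monocyte gene F13a1 had a mean of 906 TPM, beside 470 TPM for Cd34. The sums of some lists differed between stages, whereas the erythroid sums overlapped in all 3 stages and the B cell sums overlapped between GMP and matNeu. The 6 monocyte and dendritic genes summed to 1946 to 2339 TPM in GMP, 40.7 to 68.2 TPM in preNeu and 267 to 381 TPM in matNeu. Csf1r made up most of the matNeu sum, with a mean of 304 TPM, and the median log2 change of the 6 genes from preNeu to matNeu was -0.43. The 7 eosinophil, basophil and mast cell genes summed to 1189 to 1446, 115 to 178 and 42.4 to 53.4 TPM, with Epx at 0 in matNeu. The 8 B cell genes summed to 81.7 to 96.1, 29.1 to 50.5 and 63.1 to 138 TPM, with Ebf1 and Pax5 at 0 in GMP. Cd79b made up nearly all of the GMP sum, with a mean of 86.4 TPM. The 5 T and NK cell genes summed to 466 to 615, 219 to 252 and 3.50 to 6.65 TPM, with Cd3e at 0 in GMP. Nkg7 made up nearly all of the GMP and preNeu sums, with means of 539 and 230.5 TPM. The 8 erythroid genes summed to 18.9 to 30.7, 17.6 to 33.6 and 6.01 to 30.1 TPM. The part of all these markers in the results was not tested. Besides Cdc25b, exons of 10 members share bases with a gene on the other strand: Ccna2, Cdc25c, Plk1, Cdca8, Kif20a, Kif4, Prc1, Ncapg, Cdc20 and Ube2c. Like Kif23, Ncapd2 and Ttk are listed in the table with a noncoding transcript class.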

How the data were processed

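RNA-seq values were deposited by the authors in TPM, for 9 libraries, with no depth. The submitters' processing notes name kallisto 0.44.0, Trimmomatic 0.36, BWA 0.7.17 and MACS2 2.1.0, while the methods describe counting with HTSeq and testing with DESeq. How TPM was computed is not given in the sources used here. No expression column was left unused (0 columns). The peak lists were deposited by the authors with a fold enrichment, a linear ratio, and a −log10 q-value per peak, both from their peak caller, with 1 library each. Their depth is unknown.

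Samples were grouped by title. Title and cell type field name different cells for 13 of 18 samples, among them all 9 RNA libraries. Marker levels followed the titles. Values were put on the log2(TPM + 1) scale, and genes reaching 1 TPM in 3 or more libraries were fitted by stage, with no other covariate and a variance trend, in 1 limma fit of all 9 libraries (limma 3.58.1, R 4.3.3). P-values were adjusted over all genes tested by Benjamini and Hochberg, with a threshold of 0.05. The fit was tested on simulated data. The members and lists were chosen with earlier results of these data known.

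Promoters were taken from GENCODE M21 (GRCm38), and peaks counted at an overlap of 1 bp or more, with Python 3.11.15, pandas 2.3.3 and numpy 2.4.6. Plots were drawn with matplotlib 3.10.9. The lists for H3K4me3 (2179 of 20218 peaks beyond chromosome ends) and GFI1 (3105 of 26963) were not used. The ATAC-seq lists were identical (16307 peaks) and used as 1. Promoter sequences came from the RefSeq table (GRCm38.p6), where 8 members (Ccna2, Cdc25c, Aurkb, Incenp, Spc24, Tpx2, Kif20a and Smc4) had no entry. Every library's value is given for the members of each role with the highest level and the largest and smallest change between matNeu and GMP, for those not called lower there, for the 6 largest rises, and for Mki67, Cdk1, Ccnb1, Plk1 and Top2a. Of the pathway lists, the 2 largest called changes and every gene called higher in matNeu than in GMP are named, except for 1 gene that is not reported here, and Hjurp and the genes named as extremes of a group outside this rule were named after their values were seen. Alternatives were the pseudocount, the low-value filter, the scaling, the trend, the samples fitted, a minimum change, leaving out each library, and the peak, promoter and motif settings.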

Additional observations from a re-analysis of the deposited data

How the results depend on the processing

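The direction of all 42 members in preNeu against GMP and in matNeu against preNeu was the same in all 20 alternative settings of each comparison. Leaving out 1 library at a time gave 32 to 36 members called higher in preNeu than in GMP, 42 called lower in matNeu than in preNeu, with a median from -6.43 to -6.126 (the latter without matNeu 1), and 40 called lower in matNeu than in GMP. A pseudocount of 0.1 lost the preNeu calls of Cdk1, Ccnb1, Ccna2, Ccnf, Cdc25c, Spc24, Kif20a and Tpx2, leaving 26, beside 1851 of 13061 genes. Median-of-ratios scaling gave 41, all but Aurkb, beside 3033 of 12986 genes. The 2 compared groups fitted alone gave 39, beside 1962 of 13015 genes. Requiring a minimum log2 change of 1 left 5 members called changed in preNeu, all 5 higher, beside 627 of 13061 genes called higher. The median in preNeu against GMP was 1.558 with median-of-ratios scaling, 1.509 with quantile normalization and 1.331 without the 10 most abundant genes. In matNeu against preNeu it was -7.521 with a pseudocount of 0.1, -4.851 with 5, -6.141 with quantile normalization and -6.732 without the 10 most abundant genes. In matNeu against GMP it was -6.512 and -3.844 with these pseudocounts, -4.666 with median-of-ratios scaling and -4.558 with quantile normalization. Both scalings turned the difference of Kif23 to 0.767 and 0.314. They called 2 members (Kif23 and Cdc25b) and 1 member (Cdc25b) higher in matNeu than in GMP, beside 4586 of 12986 and 4991 of 13061 genes. Each value is a share of a library, and the pseudocount changes the fold of genes near 0, here those of matNeu, by its construction. In preNeu against GMP the median with a pseudocount of 0.1 was 1.047, beside 1.045 in the main fit. The spread behind those calls was taken from all 9 libraries, matNeu among them.

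The libraries share replicate numbers across stages, and the correlation of same-numbered deviations was -0.039 to 0.123 over 9 pairs, with 1 above 0.1. Such values cannot show whether libraries of the same number came from the same mice or sort, because a small shared effect can be hidden by other variation. With the replicate number as a block, 34 members were called higher in preNeu, 42 lower in matNeu than in preNeu and 40 lower than in GMP, the same counts as without it.

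For peaks, CHD4 in wild type GMPs was at 2 members (Bub1 and Kif23) with any annotated start (4.76%, against 18.7% of genes) and near 12 with peaks in the gene or within 10 kb, and in Gfi1-/- GMPs near 2. A −log10 q-value of at least 5 left 10 members with H3K4me2 in GMP (23.8%, against 37.4%) and 17 with an ATAC-seq peak (40.5%, against 39.3%), where the excess over all genes seen with the full ATAC-seq list was gone. For motifs, the 150 bases before the start held a CHR core in 14 members (41.2%, against 9.70% of promoters) in place of 29, an E2F core in 1 (2.94%, against 1.88%) and CHR with NF-Y in 12 (35.3%, against 2.43%). The 50 bases after the start, chosen after seeing the data, held a CHR core in 16 (47.1%, against 2.46%). NF-Y, E2F and both CHR and NF-Y were there in 1 member each (2.94%), against 5.22%, 0.481% and 0.18% of promoters. TPM and peak lists keep no depth, so that levels under 1 TPM and a missing peak say only that nothing was listed at a depth that is unknown.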
